A study of Homo sapiens with 14 samples.

Results

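The genes described here encode variant histones, the histones made throughout the cell cycle that replace the bulk core and linker histones at chosen places in chromatin. They were 10 genes taken by name from a count table of 58037 gene IDs: H3F3A, H3F3B and H3F3C for H3.3 and its relative, H2AFZ and H2AFV for H2A.Z, H2AFY and H2AFY2 for macroH2A, H2AFX for H2A.X, and H1FX and H1F0 for variant linker histones. The table gives reads per gene for 14 libraries from a human cell line of acute myeloid leukaemia, OCI-AML2. RUNX1, a transcription factor of blood formation, was wild type (WT) on both alleles or carried the stop codon R174* on 1 allele (mutant). RiboLace, a pull-down of RNA on translating ribosomes with a puromycin-like probe, gave 2 mutant and 2 WT libraries, none of them treated. Total RNA gave 4 mutant libraries after 8 h with 100 nM HHT, 4 mutant control libraries and 2 WT libraries. HHT is homoharringtonine, a drug that blocks translation elongation. The mutant total RNA came from F3 and G7, each a mutant line that gave 2 HHT and 2 control libraries, the mutant RiboLace RNA from F3, and the WT RNA from the parent line. How F3 and G7 were made is not given in the sources used here, and no label says that replicates were separate cultures, so p-values measure only the spread between these libraries, which may be technical.

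Limits of the labels bear on several comparisons. The WT total RNA is labelled as untreated and the mutant controls as 8 h controls, so genotype and control treatment cannot be told apart in total RNA. Another label field gives 0 h for all 6 of these libraries and 8 h for the HHT libraries, so HHT and time in culture cannot be told apart if that field is right. The mutant RiboLace libraries are untreated, while the F3 total RNA set against them is labelled as 8 h control. Assay and control treatment thus cannot be told apart in F3, nor in the change of the RiboLace to total RNA ratio between genotypes. Total RNA libraries held 19250789 to 21925693 reads and RiboLace libraries 465052 to 2034796. CPM are read counts scaled to a common library total, here with TMM factors, which correct for RNA composition, set within each assay. Of 10 myeloid markers, summed levels were 2869 to 4379 CPM in mutant RiboLace, 3481 to 5177 CPM in WT RiboLace, 3259 to 3694 CPM after HHT, 5708 to 7946 CPM in mutant controls and 3375 to 4002 CPM in WT total RNA. Of 6 lymphoid markers they were 0 to 2.77 CPM, with CD2 at 0 in every library, and of the erythroid markers HBB, HBA1 and ALAS2 were at 0, KLF1 at up to 0.163 CPM and EPOR at 3.3 to 24.2 CPM. Adherent cell markers summed to 6.75 to 23.6 CPM in RiboLace and 0.435 to 1.26 CPM in total RNA, with COL1A1 at up to 21.6 CPM in RiboLace and up to 0.316 CPM in total RNA, and with EPCAM and COL1A2 at 0. In bulk RNA, fewer cells of a kind and less RNA per cell cannot be told apart.

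Nucleosomes wrap DNA around pairs of H2A, H2B, H3 and H4, and a linker histone sits where DNA enters and leaves. The bulk histones come from replication-dependent genes, which are expressed in S phase as mRNAs that end in a stem-loop and have no poly(A) tail. Variant histone genes have introns in most cases, are not tied to S phase and give polyadenylated mRNAs. H3.3 is placed at active genes by HIRA and at repeats by DAXX and ATRX, H2A.Z is exchanged at promoters by the SRCAP and EP400 complexes, H2A.X is phosphorylated around DNA breaks, and macroH2A carries a large extra domain. H2AFX is known to give both a stem-loop mRNA and a polyadenylated mRNA.

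The annotated transcripts of GENCODE 29 were searched for both kinds of 3′ end, because only a polyadenylated mRNA can be caught by its tail. A poly(A) signal, AATAAA or ATTAAA within the last 50 bases of a coding transcript, was present for 9 of the 10 variant genes, for 22 of 71 replication-dependent histone genes and for 82.1% of the other protein-coding genes. H2AFY was the variant gene with neither signal in those bases. The 16-base histone stem-loop was present in 1 of the 10 variant genes, in 31 of 71 replication-dependent genes and in 2 of 19603 other protein-coding genes. The variant gene was H2AFX, with the stem-loop 1044 bases before the end of its 1614-base transcript. In the 3 replication-dependent genes printed below, the stem-loop also lay far from the annotated end. It lay 1761 bases before the end of 2250 in HIST1H2AG, 1114 of 1654 in HIST1H2AC and 769 of 1237 in HIST1H3H. The stem-loop counts depend on the pattern searched and on how far the annotated transcripts run. The 30-base windows are shown 5′ to 3′, with the stem-loop in capitals, for H2AFX and for the 3 replication-dependent genes with this element that had the most reads.
H2AFX: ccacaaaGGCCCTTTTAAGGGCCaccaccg
HIST1H2AG: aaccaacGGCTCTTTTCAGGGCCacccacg
HIST1H2AC: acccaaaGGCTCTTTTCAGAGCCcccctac
HIST1H3H: acccaaaGGCTCTTTTCAGAGCCacccaca
The poly(A) signals of H2AFX and of 3 further variant genes are shown in the same way, with the signal in capitals.
H2AFX: tggactaattttATTAAAggattgtttttt
H3F3B: ggatgagactaaAATAAAatttttgaagtt
H2AFZ: gtggataagttcAATAAAggtcatatccca
H1FX: ttttttgggcacAATAAAgcgtttaaacct
H2AFX thus holds both elements, with the poly(A) signal ending 39 bases before the annotated end. The counts do not say which end a read came from, so the poly(A) tail itself was not measured for any of the 10 genes.

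Promoters were matched in RefSeq (GRCh38.p14) for 8 of the 10 genes, and the 250 bases before the start were searched on both strands for CCAAT, the site of the factor NF-Y, for TATAAA, for TGACGT, the core of the cAMP response element, and for TTNGCGC, an E2F core. H3F3B, H2AFX and H2AFZ each held at least 3 CCAAT and 1 TATAAA, a combination present in 0.302% of 35116 promoter windows. CCAAT was found in 32.0% of these windows and TATAAA in 10.7%. H2AFV held 4 CCAAT and no TATAAA. H1FX held TATAAA and TTNGCGC, which was in 6.6% of windows, and none of the 8 genes held TGACGT, which was in 7.1%. A match describes the letters and shows no binding. Beyond H3F3B, H2AFX and H2AFZ, no window of the variant genes held the combination of CCAAT and TATAAA described above. Genes without it, among them H3F3A, H2AFV and H1FX, also have calls below, and any link to expression was not tested. The windows of the 3 genes are printed 5′ to 3′ on the gene's strand. CCAAT (or ATTGG on the other strand) and TATAAA are in capitals.
H3F3B, chr17:75779780-75780029, minus strand: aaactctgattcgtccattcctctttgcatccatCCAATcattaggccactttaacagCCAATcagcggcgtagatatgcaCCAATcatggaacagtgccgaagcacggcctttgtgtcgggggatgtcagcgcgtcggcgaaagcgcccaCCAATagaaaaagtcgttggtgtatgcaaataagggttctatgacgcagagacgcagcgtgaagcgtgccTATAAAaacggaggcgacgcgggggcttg
H2AFX, chr11:119095466-119095715, minus strand: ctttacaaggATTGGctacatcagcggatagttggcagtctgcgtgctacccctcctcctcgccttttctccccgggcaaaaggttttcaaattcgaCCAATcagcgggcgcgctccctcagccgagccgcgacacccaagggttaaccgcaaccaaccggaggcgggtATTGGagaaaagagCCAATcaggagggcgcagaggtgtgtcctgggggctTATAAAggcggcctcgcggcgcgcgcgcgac
H2AFZ, chr4:99950276-99950525, minus strand: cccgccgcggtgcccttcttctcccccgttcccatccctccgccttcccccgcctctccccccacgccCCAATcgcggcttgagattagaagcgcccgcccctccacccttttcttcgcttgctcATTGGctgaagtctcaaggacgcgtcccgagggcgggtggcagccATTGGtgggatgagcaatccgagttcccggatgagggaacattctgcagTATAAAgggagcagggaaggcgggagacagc

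Of the 10 genes, 7 were well read in total RNA, H3F3C was near the detection limit and 2 were at or near 0. H1F0, the linker histone of resting and differentiated cells (ENSG00000189060.5, chromosome 22, 37805093 to 37807436 on GRCh38), had no read in any of the 14 libraries. A count of 0 allows up to 3 reads, which is 0.137 to 0.156 CPM of the totals in total RNA and 1.47 to 6.45 CPM in RiboLace. H2AFY2, encoding macroH2A2 (ENSG00000099284.13, chromosome 10, 70052796 to 70112280), had 0, 1, 3 and 1 reads in the HHT libraries, 0, 0, 0 and 1 in the mutant controls and 1 and 1 in WT total RNA, and none in RiboLace. H3F3C, an intronless copy of H3F3B (ENSG00000188375.4, chromosome 12, 31791185 to 31792241), had 0 to 23 reads per library. Counts this low carry wide counting intervals, and the text below gives them as reads.

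**Figure D1:**
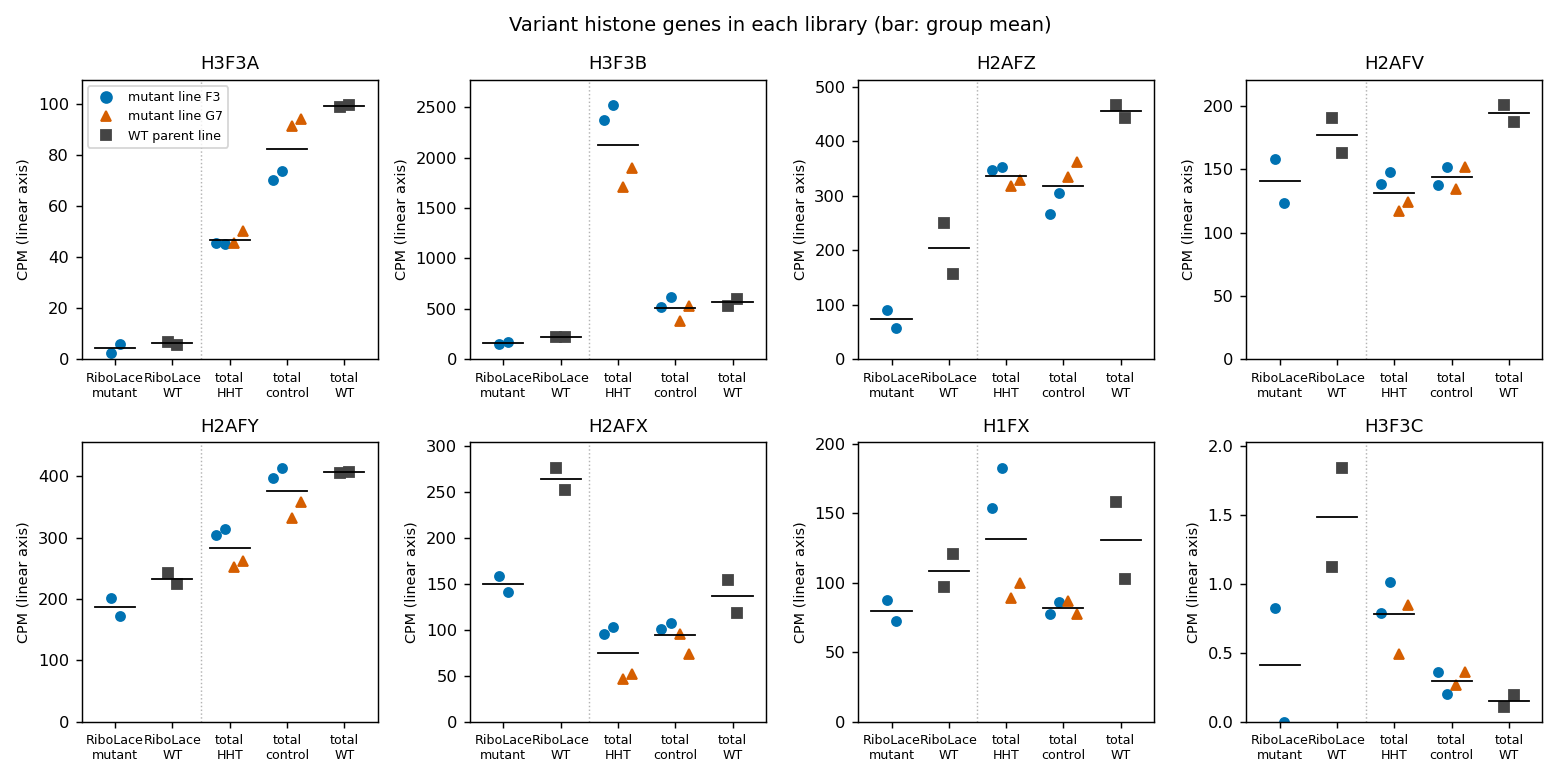
CPM (linear axis) of 8 variant histone genes in each library, by group, with points for libraries, colours for lines and bars for group means. In the H3F3B panel the 4 HHT libraries, at 1714 to 2523 CPM, stand above every other library, and in the H3F3A panel they stand at 45.0 to 50.1 CPM, below every other total RNA library.

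To compare levels between genes, CPM were divided by the median length of a gene's coding transcripts, giving a level in CPM per kb. H3F3B led in each of the 5 groups, at 3131 ± 565 CPM per kb after HHT, 753 ± 147 in the mutant controls and 828 ± 69.2 in WT total RNA (SD, n = 4, 4 and 2). In total RNA the level of H2AFZ came next, at 344 ± 16.4 after HHT, 324 ± 42.5 in controls and 465 ± 16.8 CPM per kb in WT, then those of H2AFV and H2AFY, whose ranges overlapped only in the controls. H1FX, H2AFX and H3F3A came after them, at 38.8 to 87.2 CPM per kb after HHT, 54.6 to 68.7 in controls and 82.6 to 86.7 in WT. The ranges of neighbours among these 3 overlapped in each total RNA group. H1FX and H3F3A were apart after HHT, with H1FX higher (59.2 to 121 against 37.5 to 41.8). They were also apart in controls, with H3F3A higher (58.5 to 78.3 against 51.3 to 57.9), and overlapped in WT. In RiboLace the levels of H3F3B and H2AFV led, at 228 ± 20.7 and 215 ± 37.2 CPM per kb in the mutant and 323 ± 5.87 and 269 ± 29.7 in WT (SD, n = 2 each), their ranges overlapping in the mutant only, and H3F3A was at 3.49 ± 2.02 in the mutant and 5.13 ± 0.721 in WT. In WT RiboLace the range of H2AFV overlapped that of H2AFZ, which was at 207.6 ± 67.25 CPM per kb. With merged exons as the length, H2AFZ led in mutant controls and WT total RNA and H2AFX led in RiboLace, so the first ranks depend on the length used. So does the order of H3F3A and H1FX in controls, which were at 26.1 and 54.6 CPM per kb of merged exons.

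HHT was set against control in the 8 mutant total RNA libraries, with line as a covariate. The data show opposite changes in the H3.3 genes: H3F3B stood about 4-fold higher (fold 3.95) and H3F3A lower (fold 0.543). Both encode the same H3.3 protein. H1FX was also higher, H2AFY, H2AFX and H2AFV were lower, and H2AFZ did not pass the test. H3F3C passed the count filter only with the HHT libraries, where it is high, so it is left out of the count of calls. Of the other 7 variant genes tested, 6 passed an adjusted p of 0.05 by edgeR, 2 higher and 4 lower, where 79.2% of all 13621 genes passed, 39.9% higher and 39.3% lower, so a call by itself sets no variant gene apart. With library totals in place of TMM the median of all genes moved to 0.23 (log2) and the calls to 6682 higher and 4115 lower, against 5438 and 5355.

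H3F3B (ENSG00000132475.9, chromosome 17, 75776434 to 75785893) was at 2376 and 2523 CPM in F3 and 1714 and 1897 CPM in G7 after HHT, against 520.2 and 619.7 CPM in F3 and 378 and 529.7 CPM in G7 controls. All 4 HHT libraries lay above all 4 controls, in each line. The log2 fold change was 1.98 ± 0.095 (SE, adjusted p = 2.16e-10), at the 96.7th percentile of the genes tested. H3F3A (ENSG00000163041.9, chromosome 1, 226061851 to 226072001) was at 45.5 and 45.0 CPM in F3 and 45.25 and 50.1 CPM in G7 after HHT, against 70.1 and 73.7 CPM in F3 and 91.4 and 93.8 CPM in G7 controls. The groups did not overlap, and the controls were higher in G7 than in F3 while the HHT libraries of both lines stood together. The log2 fold change was -0.88 ± 0.071 (SE, adjusted p = 4.54e-08). H3F3C had 18 and 23 reads in F3 and 11 and 20 in G7 after HHT, against 7 and 4 in F3 and 5 and 7 in G7 controls. No fitted change is given for it, since it passed the filter only through the HHT libraries. H3F3B shares 12.3% of its 30-base windows with H3F3C, and the part of H3F3B reads in the H3F3C count was not tested.

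As a share of reads of the pair, H3F3B took 98.1% and 98.3% (98.0% to 98.2% and 98.1% to 98.4%, exact 95% binomial intervals) in F3 and 97.4% and 97.4% in G7 after HHT. In controls it took 88.1% and 89.4% in F3 and 80.5% and 85.0% in G7, and in WT total RNA 84.3% and 85.7%. In RiboLace it took 98.3% and 96.6% in the mutant (95.2% to 99.7% and 90.3% to 99.3%) and 97.1% and 97.5% in WT. The HHT and RiboLace libraries thus stand together near the top and the control and WT total RNA libraries below them, with the widest spread among G7 controls. The intervals cover counting error only. The RiboLace shares rest on 3 and 3 H3F3A reads in the mutant and 12 and 6 in WT. H3F3A shares 81.1% of its 30-base coding windows with other genes and H3F3B 32.5%, and the part of these windows in the shares was not tested. The summed level of H3F3A and H3F3B was 1759 to 2568 CPM after HHT, 469 to 693 CPM in controls and 628 and 695 CPM in WT.

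**Figure D2:**
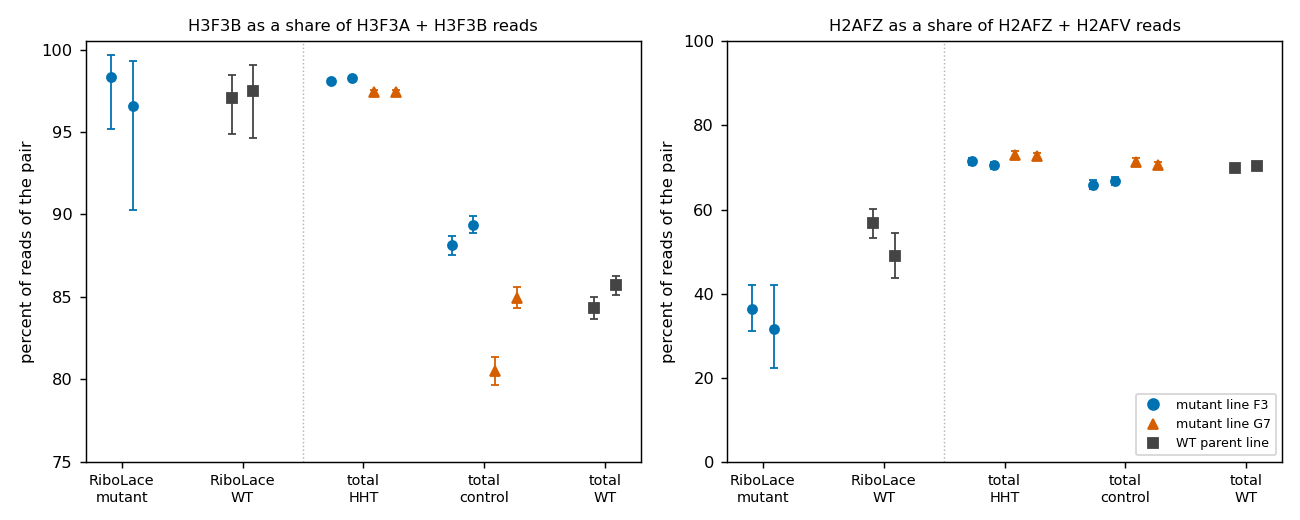
Percent of reads of a gene pair taken by H3F3B (left, axis from 75) and by H2AFZ (right) in each library, with exact 95% binomial intervals. The H3F3B share is 97.4% to 98.3% in the HHT libraries and 80.5% to 89.4% in mutant controls, and the H2AFZ share is 31.5% and 36.4% in mutant RiboLace and 49.0% and 56.7% in WT RiboLace.

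The macroH2A1 gene H2AFY (ENSG00000113648.16, chromosome 5, 135333900 to 135399914) was at 304 and 313 CPM in F3 and 252 and 262 CPM in G7 after HHT, against 398 and 414 CPM in F3 and 333 and 359 CPM in G7 controls. It was lower in each line by a similar step, by -0.48 ± 0.055 in log2 units (SE, adjusted p = 1.79e-06). H2AFV (ENSG00000105968.18, chromosome 7, 44826791 to 44848083), one of the H2A.Z genes, was at 138 and 148 CPM in F3 and 117 and 124 CPM in G7 after HHT, against 138 and 152 CPM in F3 and 134 and 152 CPM in G7 controls. The groups overlapped in F3 and not in G7. Its log2 fold change of -0.20 ± 0.068 (SE, adjusted p = 0.0157) did not pass in F3 alone (-0.10, adjusted p = 0.168), with low-count genes kept in (-0.13, adjusted p = 0.145), without HHT replicate 3 or 4 (adjusted p = 0.077 and 0.058) or with library totals (0.04, adjusted p = 0.615). H2AFZ (ENSG00000164032.11, chromosome 4, 99948086 to 99950388), the more abundant H2A.Z gene, was at 347 and 353 CPM in F3 and 318 and 329.9 CPM in G7 after HHT, against 266 and 305 CPM in F3 and 335 and 363 CPM in G7 controls. HHT libraries were above controls in F3 and below them in G7, and the log2 fold change over both lines was 0.03 ± 0.080 (SE, adjusted p = 0.773). It passed in F3 alone (0.21, adjusted p = 0.0191) and with library totals (0.26, adjusted p = 0.00675).

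The linker histone gene H1FX and H2AFX differed between the lines in their HHT change. H1FX (ENSG00000184897.5, chromosome 3, 129314771 to 129316277) was at 154 and 183 CPM in F3 and 89.2 and 100.0 CPM in G7 after HHT, against 77.9 and 86.4 CPM in F3 and 87.3 and 77.3 CPM in G7 controls. H2AFX (ENSG00000188486.3, chromosome 11, 119093854 to 119095467) was at 95.5 and 103 CPM in F3 and 47.0 and 52.0 CPM in G7 after HHT, against 101.0 and 107 CPM in F3 and 94.8 and 73.5 CPM in G7 controls. H1FX was thus about 2-fold higher (ratio of means 2.05) in F3 and 1.15-fold higher in G7, while H2AFX overlapped in F3 and was lower in G7. Over both lines the log2 fold change was 0.55 ± 0.13 for H1FX (adjusted p = 0.00177) and -0.48 ± 0.12 for H2AFX (adjusted p = 0.00262). In G7 alone H1FX stood at 0.14 (adjusted p = 0.232), and with library totals H2AFX stood at -0.25 (adjusted p = 0.0935). H2AFX passed in 15 of 16 alternatives, the fit of F3 alone among them, and its log2 change over all 16 was -0.82 to -0.16.

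The difference in HHT response, G7 minus F3, was tested as an interaction. Of the 7 variant genes tested other than H3F3C, 2 passed, both lower in G7, where 4.20% of 13621 genes passed and 2.06% were lower. The difference was -0.82 ± 0.14 for H1FX (SE, adjusted p = 0.00354) and -0.68 ± 0.15 for H2AFX (adjusted p = 0.0174). The H1FX call was lost without control replicate 1 (-0.72, adjusted p = 0.061). The H2AFX call was lost without control replicate 1 or 2 (adjusted p = 0.149 and 0.0694) and without HHT replicate 2 or 3 (adjusted p = 0.0765 and 0.0886). H2AFZ differed by -0.39 ± 0.11 (adjusted p = 0.0665) and H3F3A by -0.27 ± 0.11 (adjusted p = 0.209). H2AFZ passed with no filter (adjusted p = 0.0205), DESeq2 (adjusted p = 0.0387), library totals (adjusted p = 0.0464) and without control replicate 3 (adjusted p = 0.0333). The H3F3B response differed by -0.09 ± 0.17 (adjusted p = 0.841). Of 16 S phase and mitosis markers, 3 were called and lower, among them PCNA (-0.54 ± 0.12, adjusted p = 0.0181), and their part in the H1FX and H2AFX results was not tested. Of the pathway genes, CABIN1 of the HIRA complex was higher (0.45 ± 0.10, adjusted p = 0.0219) and the centromere histone gene CENPA lower (-0.52 ± 0.12, adjusted p = 0.0244).

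**Figure D3:**
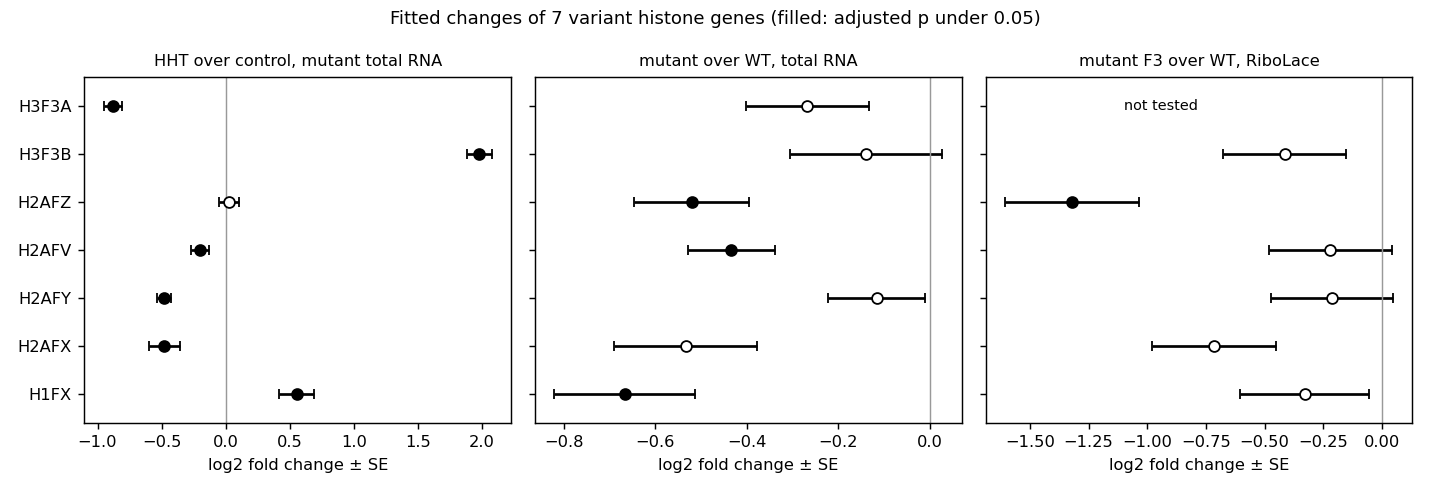
Log2 fold changes with SE of 7 variant histone genes for HHT over control, mutant over WT in total RNA and mutant F3 over WT in RiboLace, where 6 were tested and H3F3A was not, filled where the adjusted p is under 0.05. After HHT the values span -0.88 for H3F3A to 1.98 for H3F3B, and in both genotype panels the values lie below 0, with horizontal axes scaled per panel.

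Genes of the pathways that place and mark these histones were read in the same fit and are set beside its background, where 39.9% of all genes were higher and 39.3% lower. Of 7 H3.3 chaperone genes, 6 rose and none fell after HHT, with a list median of 0.39 beside 0.00 for all genes (-0.0018). ASF1A, which hands H3 to HIRA, rose by 1.27 ± 0.083 (adjusted p = 4.75e-09), UBN2, a subunit of the HIRA complex, by 0.99 ± 0.081 (adjusted p = 5.24e-08) and DAXX by 0.40 ± 0.058 (adjusted p = 2.08e-05). Of 12 H2A.Z exchange genes, 3 rose and 5 fell, with INO80 at 1.13 and RUVBL2, an ATPase subunit these complexes share, at -0.66. Of 9 genes that act on H2A.X, 6 rose and 2 fell, with BAZ1B, the kinase of its C-terminal tyrosine, at 1.22, the phosphatase EYA3 at 0.96 and the kinase PRKDC at a fitted log2 change of -1.20. Of 12 general histone chaperones tested, 5 rose and 5 fell, with SUPT16H of the FACT complex at -2.17, RBBP4 at -1.25 and SUPT6H at 0.90. Of 9 genes of stem-loop processing, 6 rose and 2 fell, with CASP8AP2 at 1.49, NPAT, an activator of histone genes, at 1.16 and SYMPK at -0.57. Of other variant histones, 2 were tested and H2AFJ rose by 0.35 ± 0.11 (adjusted p = 0.00957). Of 39 replication-dependent histone genes tested, 8 passed the filter only with the HHT libraries, and the other 31 all rose, with a median of 1.79. All genes of the list summed to 316 to 389 CPM after HHT, against 87.3 to 106 CPM in controls. Of 16 S phase and mitosis markers, 6 were higher and 5 lower. Of 10 myeloid markers, 2 were higher and 8 lower after HHT, with a median of -1.11, and EPOR was lower (-1.48 ± 0.11, adjusted p = 2.22e-08), and their part in the variant histone results was not tested.

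Mutant was set against WT in total RNA with F3 and G7 as 1 group, and the 4 mutant libraries are the same controls that HHT was set against. All 7 variant genes tested had negative log2 fold changes and 3 passed, H1FX, H2AFZ and H2AFV, where 4.56% of 13949 genes passed and 2.07% were lower. The median of the 7 was -0.43, beside 0.0032 for all genes. H1FX was at 77.9, 86.4, 87.3 and 77.3 CPM in the mutant, against 158 and 103 CPM in WT, lower by -0.67 ± 0.15 in log2 units (SE, adjusted p = 0.0435). H2AFZ was at 266, 305, 335 and 363 CPM in the mutant, against 467 and 443 CPM in WT (-0.52 ± 0.12, adjusted p = 0.0487). H2AFV was at 138, 152, 134 and 152 CPM in the mutant, against 201 and 188 CPM in WT (-0.43 ± 0.095, adjusted p = 0.0372). In these 3 genes no mutant library reached a WT library, as also in H2AFX and H3F3A, which did not pass. The share of such genes over all genes was not counted. The WT libraries of H1FX lay far apart.

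The 3 calls were close to the threshold. H2AFZ was not called with RLE size factors (adjusted p = 0.0513) or library totals (adjusted p = 0.0511). Leaving out either WT library ended the H2AFZ and H2AFV calls (adjusted p = 0.349 and 0.217 for H2AFZ, 0.332 and 0.172 for H2AFV), and leaving out WT replicate 1 that of H1FX (-0.33, adjusted p = 0.406). Leaving out mutant control replicate 1 or 2 also ended all 3 calls (adjusted p = 0.0534 to 0.0859), replicate 3 that of H2AFV (adjusted p = 0.0566) and replicate 4 that of H1FX (adjusted p = 0.0727). With each line alone against WT, the 3 genes were called in F3 (H1FX -0.67, H2AFZ -0.68, H2AFV -0.43) and in G7 (-0.66, -0.37 and -0.43).

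The other 4 genes did not pass. H2AFX was at 101.0, 107, 94.8 and 73.5 CPM in the mutant, against 154 and 119 CPM in WT (-0.53 ± 0.16, adjusted p = 0.0875), with no overlap, and passed with F3 alone (-0.39, adjusted p = 0.014) and with G7 alone (-0.69, adjusted p = 0.00228). H3F3A was at 70.1, 73.7, 91.4 and 93.8 CPM in the mutant, against 98.6 and 99.4 CPM in WT (-0.27 ± 0.13, adjusted p = 0.288), again with no overlap, and in F3 alone it passed (-0.47, adjusted p = 0.00174). H3F3B had -0.14 ± 0.17 (adjusted p = 0.682) and H2AFY -0.12 ± 0.11 (adjusted p = 0.582), and their libraries overlapped between genotypes. Between the control libraries of the lines, G7 over F3, 1 of 7 variant genes tested passed, H3F3A (0.38 ± 0.11, adjusted p = 0.0118), where 15.9% of 13634 genes passed and 7.37% were higher, and leaving out F3 control replicate 1 or 2 ended that call (adjusted p = 0.317 and 0.175), as did no filter (adjusted p = 0.121). Of the pathway genes, ANP32E, which takes H2A.Z out of nucleosomes, was higher in G7 (0.36 ± 0.11, adjusted p = 0.0228), as were the chaperones CHAF1B (0.47 ± 0.14, adjusted p = 0.0121) and NASP (0.39 ± 0.11, adjusted p = 0.0125), and H2AFJ was lower (-0.79 ± 0.20, adjusted p = 0.00445).

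Among pathway genes in mutant total RNA, the S phase and mitosis markers had 8 of 16 lower and none higher, with a median of -0.52. Of all 13949 genes tested, 2.07% were lower. The 3 with the smallest adjusted p were RRM2 (-0.69 ± 0.10, adjusted p = 0.00874), MCM3 (-0.61 ± 0.10, adjusted p = 0.0123) and PCNA (-0.78 ± 0.13, adjusted p = 0.0138). Their summed level was 3012 to 3404 CPM in mutant controls and 4322 and 4576 CPM in WT, and their part in the lower variant histone levels was not tested. SLBP, which binds the histone stem-loop, was lower (-0.54 ± 0.089, adjusted p = 0.0123), as was CHAF1B, a subunit of the replication-linked H3 chaperone (-0.82 ± 0.17, adjusted p = 0.0323). None of 7 H3.3 chaperones, 12 H2A.Z exchange genes or 9 H2A.X genes passed. The 32 replication-dependent histone genes tested had no call and a median of -0.0075. All genes of that list summed to 87.3 to 106 CPM in the mutant and 77.0 and 92.2 CPM in WT.

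In RiboLace, mutant F3 was set against WT with 2 libraries each. Of 6 variant genes tested, 1 passed, H2AFZ, where 11.8% of 9805 genes passed and 5.59% were lower. H2AFZ was at 90.7 and 57.0 CPM (110 and 29 reads) in the mutant, against 249.9 and 157 CPM (444 and 170 reads) in WT. The libraries of a group lay far apart, and every mutant library was below every WT library. This held for each of the 6 genes tested, so it does not set H2AFZ apart, and the share over all genes was not counted. The log2 fold change was -1.32 ± 0.28 (SE, adjusted p = 0.00283), and without mutant replicate 2, the library with the fewest reads, it was -1.09 (adjusted p = 0.148). H2AFX was at 158 and 141 CPM in the mutant, against 276 and 252 CPM in WT (-0.72 ± 0.26, adjusted p = 0.0678). H3F3B was at 145 and 165 CPM in the mutant, against 222 and 217 CPM in WT (-0.42 ± 0.26, adjusted p = 0.311). H2AFV, H2AFY and H1FX had -0.22, -0.21 and -0.33, each with an SE of 0.26 to 0.27 and an adjusted p of 0.456 to 0.634. H3F3A, with 3 and 3 reads in the mutant and 12 and 6 in WT, was below the filter, and the ratio of summed reads per depth was 0.621 (exact 95% interval 0.202 to 1.63).

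The H2AFZ share of the reads of the H2A.Z pair was 36.4% and 31.5% in mutant RiboLace (31.0% to 42.1% and 22.2% to 42.0%) and 56.7% and 49.0% in WT RiboLace (53.2% to 60.2% and 43.6% to 54.4%). In total RNA it was 70.5% to 73.1% after HHT, 65.9% to 71.4% in mutant controls and 69.9% and 70.3% in WT. The RiboLace share was below the total RNA share in both genotypes, and lowest in the mutant. At 30 bases H2AFZ shares 197 of its 358 coding windows with other genes, and H2AFV 155 of 452. At 75 bases H2AFZ shares 17 of 313 and H2AFV 79 of 452. The part of these windows in the H2AFZ share of reads was not tested. The counts of lower genes that follow are set beside 5.59% of all 9805 genes tested in RiboLace. Of 42 replication-dependent histone genes tested in RiboLace, 38 were lower in the mutant and none higher, with a median of -1.29. All genes of that list summed to 8695 and 6051 CPM in the mutant against 22220 and 16480 CPM in WT. S phase and mitosis markers summed to 2817 and 2372 CPM in the mutant and 3857 and 3401 CPM in WT, with 3 of 16 lower: CCNB1 (-1.07 ± 0.28, adjusted p = 0.0126), CCNA2 (-0.91 ± 0.27, adjusted p = 0.0288) and PCNA (-0.87 ± 0.27, adjusted p = 0.0343). Whether these have a part in the H2AFZ difference was not tested. UBN2 (1.58 ± 0.29, adjusted p = 0.000528), ATM (1.00 ± 0.27, adjusted p = 0.0136) and the chaperone ASF1B (1.34 ± 0.30, adjusted p = 0.00342) were higher in mutant RiboLace, and the histone acetyltransferase HAT1 was lower (-0.999 ± 0.31, adjusted p = 0.0305).

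RiboLace was set against total RNA in each genotype from 1 fit of 8 libraries, scaled together, with 1 spread per gene for both assays. The CPM printed beside these fits carry TMM factors set within each assay, so RiboLace and total RNA CPM are not on a common scale. The F3 total RNA libraries are those labelled as 8 h controls, while the RiboLace and WT libraries are untreated. In both genotypes H3F3A, H3F3B, H2AFZ and H2AFY stood lower in RiboLace and H2AFX higher, and H2AFV and H1FX did not pass. H3F3C passed the count filter only with the RiboLace libraries, where it is high, so it is left out of the counts of calls. In mutant F3, 5 of the other 7 variant genes tested passed, 4 lower and 1 higher, where 49.2% of 15338 genes passed, 22.7% lower and 26.5% higher. In WT, 5 of these 7 passed, 4 lower and 1 higher, where 48.3% of genes passed, 21.0% lower and 27.3% higher. In WT, H3F3C had 4 reads in RiboLace and 6 in total RNA, a ratio of 8.73 per depth with an exact 95% interval of 1.81 to 36.8. In mutant F3 it had 1 and 11 reads (ratio 2.27, interval 0.0528 to 15.6).

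H3F3A stood farthest below, with 2.47 and 5.89 CPM in mutant RiboLace against 70.1 and 73.7 CPM in F3 total RNA, and 6.75 and 5.53 CPM in WT RiboLace against 98.6 and 99.4 CPM in WT total RNA. These RiboLace values rest on 3, 3, 12 and 6 reads, with exact 95% intervals of 0.619 to 8.77 reads for each mutant library and 6.2 to 21.0 and 2.2 to 13.1 for WT. The log2 fold change was -4.20 ± 0.36 in F3 (adjusted p = 2.38e-09) and -3.87 ± 0.26 in WT (adjusted p = 2.25e-11). All 382 of its 30-base windows that also occur in transcripts of other genes lie in its coding part, where they make up 81.1% of windows, and 79.1% at 75 bases. Its processed pseudogene H3F3AP4, which copies that coding part, had 120 to 286 reads in each total RNA library and 0 in each RiboLace library. Neither the read length nor the handling of reads with several matches is stated in the labels, and their part in the H3F3A result was not tested. For H3F3B the shared part of coding windows was 32.5% at 30 bases and 8.7% at 75 bases. For H2AFZ it was 197 of 358 windows at 30 bases and 17 of 313 at 75 bases. The part of these windows in the lower RiboLace levels of H3F3B and H2AFZ was not tested.

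H3F3B changed by -1.74 ± 0.19 in F3 (adjusted p = 1.37e-07) and -1.24 ± 0.18 in WT (adjusted p = 5.7e-06), H2AFZ of -1.72 ± 0.23 (adjusted p = 2.45e-06) and -1.04 ± 0.20 (adjusted p = 0.00019), and H2AFY of -0.94 ± 0.18 (adjusted p = 0.000163) and -0.68 ± 0.17 (adjusted p = 0.00216). H2AFX was at 158 and 141 CPM in mutant RiboLace against 101.0 and 107 CPM in F3 total RNA, and at 276 and 252 CPM in WT RiboLace against 154 and 119 CPM in WT total RNA. In these CPM, scaled within each assay, each RiboLace library was above each total RNA library of its genotype. The fit gave log2 fold changes of 0.70 ± 0.19 in F3 (adjusted p = 0.00354) and 1.07 ± 0.17 in WT (adjusted p = 1.82e-05). The F3 call was lost without mutant RiboLace replicate 1 (0.59, adjusted p = 0.0906). H2AFV had 0.15 ± 0.18 in F3 and -0.01 ± 0.17 in WT, and H1FX 0.15 ± 0.23 and -0.16 ± 0.20. With RLE size factors and library totals the 5 calls shared by both genotypes kept their direction and passed.

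**Figure D4:**
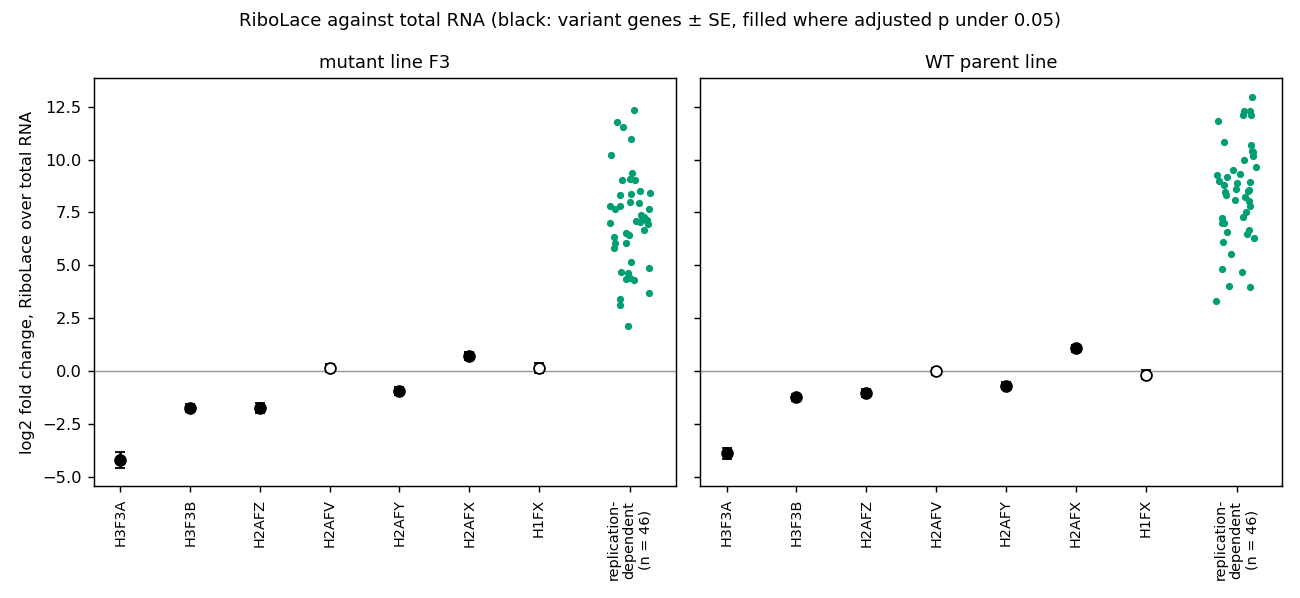
Log2 fold change of RiboLace over total RNA in mutant F3 (left) and WT (right) for 7 variant histone genes with SE, and for each of 46 replication-dependent histone genes. H2AFX, the variant gene with the stem-loop, stands at 0.70 and 1.07 above the other variant genes, and the replication-dependent genes have medians of 7.14 and 8.56. Of the 46, 14 passed the filter only with RiboLace, where they are high, and the other 32 have medians of 6.98 and 8.22.

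The replication-dependent histone genes set the scale of this contrast. Of 46 tested, 14 passed the filter only with RiboLace, where they are high, and the other 32 were all higher in RiboLace in each genotype, with medians of 6.98 in F3 and 8.22 in WT beside -0.02 and 0.01 for all genes. Over all 46, the medians were 7.14 in F3 and 8.56 in WT. With the 3 genes without a read in F3 total RNA and the 3 without one in WT total RNA set to their lower bound, 3 reads over the group, the medians were 7.11 and 8.51. The 3 with the most reads over the table were HIST1H2AG, HIST1H1C and HIST1H2BK. HIST1H2AG, an H2A gene whose stem-loop is printed above, was at 573 and 412 CPM in mutant RiboLace against 6.14 and 5.80 CPM in F3 total RNA, and at 1624 and 1089 CPM in WT RiboLace against 3.10 and 4.53 CPM in WT total RNA. HIST1H1C, a linker histone gene, was at 327 and 259 CPM in mutant RiboLace against 10.3 and 12.3 CPM in F3 total RNA. HIST1H2BK, an H2B gene, was at 155 and 100.2 CPM in mutant RiboLace against 13.6 and 14.7 CPM in F3 total RNA. In these CPM, scaled within each assay, all 3 were thus higher in each RiboLace library than in either total RNA library. Whether RNA was selected by its poly(A) tail is not stated for either assay, and the part of such selection in these contrasts, that of H2AFX among them, was not tested. The coding part of H2AFX shares 16.6% of its 30-base windows, and none of its 75-base windows, with other genes, among them the replication-dependent H2A genes HIST3H2A, HIST1H2AB and HIST1H2AL. Whether RiboLace reads of H2AFX come from those genes or from its stem-loop mRNA was not tested.

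Among the pathway genes, the H2A.Z exchange ATPases SRCAP and EP400 were higher in RiboLace, SRCAP at 1.76 ± 0.30 in F3 and 1.63 ± 0.26 in WT and EP400 at 1.43 ± 0.17 in F3 and 0.98 ± 0.17 in WT, while RUVBL2 was lower at -1.06 in F3 and -0.85 in WT. INO80, the ATPase of its own complex, was higher in F3 (0.76 ± 0.19, adjusted p = 0.00248) and did not pass in WT (0.18 ± 0.19, adjusted p = 0.45). The counts of these lists are set beside 26.5% of all genes higher and 22.7% lower in F3, and 27.3% higher and 21.0% lower in WT. Of the 12 H2A.Z exchange genes, 4 were higher and 6 lower in F3, and 3 higher and 4 lower in WT. Of 9 H2A.X genes, 6 were higher and none lower in F3, and 4 higher and 2 lower in WT, with the kinases ATM (1.76 in F3, 0.95 in WT) and ATR (1.67 in F3, 1.62 in WT) among those higher in both. Of 7 H3.3 chaperones, 2 were higher and 1 lower in F3, and 1 higher and 1 lower in WT, with UBN2 at 2.44 in F3 and 1.17 in WT. Of 13 general chaperones, 2 were higher and 4 lower in F3, and 2 higher and 6 lower in WT, with ASF1B at 3.75 in F3 and 2.05 in WT and NAP1L1 at -1.71 in F3 and -1.55 in WT. Of 9 genes of stem-loop processing, 2 were higher and 4 lower in F3, and 3 higher and 5 lower in WT, with CASP8AP2 at 1.79 in F3 and 1.26 in WT and the endonuclease CPSF3 at -1.26 in F3 and -0.67 in WT. The genes named here other than INO80 passed an adjusted p of 0.05 by edgeR in both genotypes.

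The change of the RiboLace to total RNA ratio between mutant F3 and WT was tested as an interaction. The 8 h control label of F3 total RNA, which WT total RNA lacks, bears on this change too. By edgeR none of the 7 variant genes tested other than H3F3C passed, where 1.49% of 15338 genes passed, 74 higher and 155 lower, or 72 and 79 with library totals. H2AFZ had -0.68 ± 0.31 (adjusted p = 0.264) and H3F3B -0.50 ± 0.26 (adjusted p = 0.353). The SE of 0.25 to 0.65 for the 7 genes other than H3F3C limits what can be detected at this depth, and H3F3A has 3 to 12 reads in each RiboLace library. At an unadjusted p under 0.05 stood 1 gene, H2AFZ, and DESeq2 called none of these 7 genes. Of 46 replication-dependent genes, 14 of which passed the filter only with RiboLace, 10 were lower and none higher. UBN2 (1.27 ± 0.30, adjusted p = 0.0354) and ASF1B (1.70 ± 0.30, adjusted p = 0.00683) were higher.

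For the 7 well-read genes, the protein-coding genes with the most similar pattern over the 10 total RNA libraries were found among 9760 genes by Pearson's r of log2 (CPM + 1). The 10 libraries share the HHT contrast, and the values describe these libraries only. They were BNIP1 (r = 0.999) and ZNF430 (0.998) for H3F3B, ELAVL1 (0.994) and HENMT1 (0.992) for H3F3A, FOXRED1 (0.980) and PCNA (0.974) for H2AFZ, and ATP5MF (0.990) and NDUFAB1 (0.983) for H2AFV. They were PSMB9 (0.994) and RPL24 (0.993) for H2AFY, RAB34 (0.984) and COX5A (0.982) for H2AFX, and STUB1 (0.980) and RCC1L (0.977) for H1FX. Among the 7 genes themselves, r ran from -0.93 for H3F3A with H3F3B to 0.83 for H2AFY with H2AFX, and was 0.79 for H2AFZ with H2AFV.

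Of 15 annotated pseudogenes of the variant genes, 2 had no read and H3F3AP4 had the most, 1893 over all libraries, with H3F3AP6 next at 294. H3F3AP4 had 154, 120, 123 and 162 reads after HHT, against 176, 216, 214 and 223 in mutant controls, and 219 and 286 in WT total RNA. Every HHT library had fewer H3F3AP4 reads than every control library. H2AFVP1 had 134 reads in all. Exons of H3F3A, H3F3B, H2AFZ, H2AFY, H2AFY2 and H1FX overlap genes on the other strand, H1FX with H1FX-AS1 over 47.1% of its 30-base coding windows, and since no source used here gives the strandedness, reads of such partners cannot be told apart.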

How the data were processed

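Reads were counted per gene in 14 OCI-AML2 libraries, and the authors deposited whole-number counts for 58037 gene IDs, not normalized. The build GRCh38 and the tools STAR 2.6.0b and DESeq2 are listed without roles, per the submitters' processing notes. Counting, strandedness, selection of RNA and RiboLace library making are not stated there. Of the IDs, 57388 matched GENCODE 29, which gave names, coordinates and transcripts. Each library had 465052 to 21925693 counts, and replicates differed beyond sampling noise (chi-square per degree of freedom 2.947 to 11.313), so each was used as 1 replicate.

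Groups came from the labels. Each comparison was fitted over all genes with edgeR 4.0.16 in R 4.3.3 (TMM scaling, filterByExpr by group, quasi-likelihood F-test, Benjamini-Hochberg over all genes tested, called at an adjusted p under 0.05), with the SE taken as the log2 fold change over the root of F. A fitted log2 fold change rests on counts with a small prior. The script was tested on simulated data. Alternatives were DESeq2 1.42.0, RLE size factors, no filter, protein-coding genes alone, each line alone, replicate blocks and leaving out each library, and, added after seeing the data, library totals and a crossed block. Titles and descriptions number the HHT and control libraries differently, so the numbers are not taken to pair them. Binomial and Poisson intervals are exact at 95% and cover counting error only, as does the limit of 3 reads for a count of 0.

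The 10 genes and the gene lists were chosen with earlier results of these data known. Named genes were all 10, up to 3 per list with the smallest adjusted p among those called, the 3 replication-dependent histone genes and the pseudogenes with the most reads, and the 2 genes most correlated with each variant gene with at least 5 CPM. INO80 in RiboLace and EPOR were named after their values were seen.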

Additional observations from a re-analysis of the deposited data

Results flagged for a closer look

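H3F3A stood at 50.08 CPM in replicate 4 of the HHT libraries, far from the other 3 for a group of 4. Of 16 groups looked at, 1 held such a sample, and chance gives about 1 in 20. The HHT response of H1FX differed between the lines by -0.8179 (log2, G7 minus F3, adjusted p = 0.00354 by edgeR), with both lines' HHT libraries above their controls. That of H2AFX differed by -0.6805 (adjusted p = 0.0174 by edgeR), with overlap of HHT and control libraries in F3 and none in G7. The pseudogene H2AFZP4, used in no comparison, had 64 reads summed over the RiboLace libraries (15 and 8 in the mutant, 27 and 14 in WT), against 0 to 2 reads in each total RNA library, which are deeper.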

How the results depend on the processing

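Of 790 alternative values for 57 results on single variant genes, 702 kept their direction and side of the threshold, 32 lost a call, 22 gained one and 34 changed sign, none of the 34 with a call under the alternative. Sign changes in log2 units were, for HHT, H2AFZ -0.0055 with protein-coding genes alone and -0.165 in G7 alone, and H2AFV 0.0352 with library totals. For G7 over F3 they were H1FX -0.0015 with no filter and H2AFV 0.0179 with library totals. For mutant over WT total RNA, H3F3B was 0.0109 with the replicate block and 0.0143 in F3 alone. For RiboLace over total RNA in WT, H2AFV was 0.0666 with RLE, 0.0685 with DESeq2, 0.0712 with protein-coding genes alone and 0.047 in its own fit. Leaving out 1 library, HHT gave H2AFZ -0.0766 to 0.0856. The HHT response gave H3F3B -0.2929 to 0.1916 and H2AFY -0.0445 to 0.062. G7 over F3 gave H2AFV -0.0983 to 0.0674 and H1FX -0.088 to 0.0984. RiboLace over total RNA gave H2AFV -0.0749 to 0.3044 and H1FX -0.025 to 0.3114 in F3, and H2AFV -0.1501 to 0.0959 and H1FX -0.3818 to 0.2456 in WT. The ratio change gave H3F3A -0.8348 to 0.4215, H2AFV -0.0536 to 0.2945 and H1FX -0.0063 to 0.6086, and called H2AFZ without WT RiboLace replicate 2 (-0.93, adjusted p = 0.0151). Genes called in all moved as follows. The HHT response had 2199 with the replicate block and 170 to 1045 leaving out 1 library, against 572. G7 over F3 had 648 with no filter, 1417 with DESeq2 and 946 to 2879, against 2166. Mutant over WT total RNA had 1655 with no filter, 1111 with DESeq2, 2652 with the block, 3080 in F3 alone, 2059 in G7 alone and 43 to 649, against 636. Mutant over WT RiboLace had 415 with DESeq2 and 247 to 1811, against 1154. RiboLace over total RNA in F3 had 4679 to 7885, against 7548. The ratio change had 527 with no filter, 634 with DESeq2, 361 with protein-coding genes alone, 151 with library totals and 24 to 1497, against 229. HHT and control libraries share only a number: in the titles' numbers r was 0.479 to 0.621 over the 4 pairs, but libraries of the same line with other numbers had 0.336 to 0.586, within a line the same number had 0.26 in F3 and 0.48 in G7, not every library correlated best with its own number, and the descriptions pair G7 control 3 with G7 HHT 4. The block by the titles' numbers changed 5 of 50 calls on variant genes: H2AFZ (-0.39, adjusted p = 0.0004) and H3F3A (-0.28, adjusted p = 0.0345) in the HHT response, and H3F3A (-0.47, adjusted p = 0.00404) and H2AFX (-0.38, adjusted p = 0.0209) in mutant over WT total RNA and H2AFX (-0.72, adjusted p = 0.033) in RiboLace, where samples also share only a number. RiboLace and total RNA of the same number deviated apart (r -0.12 in WT, -0.13 in F3), and a crossed block gave 7205 calls in WT, 7448 in F3 and 313 for the ratio change, against 7408, 7548 and 229. The cause was not tested. Depth limits RiboLace results, above all for H3F3A and H3F3C.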
